A study of Mus musculus with 6 samples.

Results

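The 9 immunoglobulin constant genes *Ighm*, *Ighd*, *Ighg1*, *Ighg2b*, *Ighg2c*, *Ighg3*, *Igha*, *Igkc* and *Iglc2*, and the joining chain gene *Jchain*, were followed in RNA sequenced from mammary epithelial cell preparations of pubertal mice. They were found by gene symbol, and each of the 10 had 1 row among the 61880 rows of the count matrix. Samples came from 6- to 8-week-old female mice of the FVB/NJ background, either transgenic *fat-1* or wild-type (WT), with *n* = 3 pooled samples per genotype. With this transgene, a desaturase of the roundworm *Caenorhabditis elegans*, mice turn *n*-6 into *n*-3 polyunsaturated fatty acids throughout the body. Both genotypes stayed for life on the parental diet, a modified AIN93G diet with 10% safflower oil by weight, which is rich in *n*-6 fatty acids. Each sample, called a pool below where values are listed, combined the inguinal glands of 2 to 3 mice, so differences between single mice cannot be seen. Per the methods, lymph nodes were removed before the glands were digested, and no step that sorts cells by surface markers was described.

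B cells carry an antibody on their surface, made of a pair of heavy chains and a pair of light chains. The variable part of each chain is assembled from gene segments, and the constant part sets the antibody class. A naive B cell makes IgM and IgD from the same long transcript, by splicing to *Ighm* or *Ighd*. After activation, class switching joins the variable region to a constant gene further downstream, which gives IgG or IgA, and plasma cells then secrete the antibody in large amounts. In the mammary gland, IgA-secreting plasma cells are known to arrive mainly around lactation, when dimeric IgA held together by the J chain is carried into milk.

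Heavy chain constant genes lie side by side on chromosome 12, read from the minus strand (GRCm38). In the order of transcription these were *Ighm* (chr12:113418558-113422730), *Ighd* (chr12:113406604-113416324), *Ighg3* (chr12:113356224-113361232), *Ighg1* (chr12:113325240-113330523), *Ighg2b* (chr12:113302965-113307933), *Ighg2c* (chr12:113285325-113288932) and *Igha* (chr12:113254830-113260236). The light chain genes were *Igkc* (chr6:70726435-70726966, plus strand) and *Iglc2* (chr16:19198396-19200351, minus strand), and *Jchain* lies on the minus strand of chromosome 5 (chr5:88519809-88527891).

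The last 60 coding bases of the secreted heavy chains show what sets IgM and IgA apart from IgG, since the J chain binds a cysteine in the tail of IgM and IgA. The codon before the last one is in capitals. It is TGC, the cysteine codon, in *Ighm* (chr12:113420870-113420929) and *Igha* (chr12:113258771-113258830) and GGT in *Ighg2b* (chr12:113306392-113306451), all given 5′ to 3′ on the minus strand of GRCm38.
Ighm: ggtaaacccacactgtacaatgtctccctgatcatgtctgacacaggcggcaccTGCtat
Igha: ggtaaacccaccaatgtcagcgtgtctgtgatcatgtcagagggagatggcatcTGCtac
Ighg2b: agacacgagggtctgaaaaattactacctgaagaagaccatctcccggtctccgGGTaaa

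The IgG genes are close relatives, so that reads can be shared out between them during counting, and the start of their first constant exon is shown for that reason. Capitals mark the bases that differ from *Ighg2b* (chr12:113307834-113307933, minus strand), 9 of 100 in *Ighg2c* (chr12:113288833-113288932), 18 in *Ighg1* (chr12:113330424-113330523) and 17 in *Ighg3* (chr12:113361133-113361232).
Ighg2b: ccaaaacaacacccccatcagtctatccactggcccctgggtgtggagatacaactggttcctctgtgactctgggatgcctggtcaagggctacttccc
Ighg2c: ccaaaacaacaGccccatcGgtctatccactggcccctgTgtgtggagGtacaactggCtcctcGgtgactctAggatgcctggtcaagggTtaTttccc
Ighg1: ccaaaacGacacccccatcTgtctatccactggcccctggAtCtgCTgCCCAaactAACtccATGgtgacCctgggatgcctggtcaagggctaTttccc
Ighg3: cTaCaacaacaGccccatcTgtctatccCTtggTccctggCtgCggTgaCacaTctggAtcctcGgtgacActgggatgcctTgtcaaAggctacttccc
Over the whole coding sequence, *Ighg2b* and *Ighg2c* were 85.6% identical, and the other IgG pairs were 73.8% to 75.5% identical.

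Of the lambda genes, *Iglc2* (chr16:19198752-19198851, minus strand) differed from *Iglc3* (chr16:19065581-19065680), which is not among the 10 genes, at 6 of the 100 bases shown, and from *Iglc1* (chr16:19061971-19062070) at 24. Capitals again mark the differences from the first line.
Iglc2: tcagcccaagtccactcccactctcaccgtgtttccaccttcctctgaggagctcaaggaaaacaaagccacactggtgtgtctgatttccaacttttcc
Iglc3: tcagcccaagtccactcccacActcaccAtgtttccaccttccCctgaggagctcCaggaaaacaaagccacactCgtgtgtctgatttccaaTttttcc
Iglc1: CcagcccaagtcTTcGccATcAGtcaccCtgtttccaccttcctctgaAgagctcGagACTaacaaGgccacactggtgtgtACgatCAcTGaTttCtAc
*Iglc2* and *Iglc3* were 96.2% identical over their coding sequences. No stretch of 100 bases, the read length, in the annotated transcripts of any of the 10 genes was also present in a transcript of another gene. Mismatches were not allowed in that search, and GRCm38 is the sequence of another strain, C57BL/6J. How reads from FVB/NJ immunoglobulin alleles were placed on it was not tested.

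The 6 libraries held 204539059 to 232148824 counts. One count was thus worth 0.00431 to 0.00489 CPM, the count divided by the library total and scaled to a common size, with totals adjusted by the trimmed mean of M values (TMM). The rows of the 10 genes held 0.0896%, 0.21% and 0.15% of all counts in *fat-1* samples 1 to 3 and 0.0939%, 0.0927% and 0.227% in WT samples 1 to 3. Marker genes of epithelial cells were present in every sample. *Epcam*, a surface protein of epithelial cells, had 791, 197 and 338 CPM in the *fat-1* pools and 613, 357 and 199 CPM in the WT pools, and the luminal keratin gene *Krt8* had 148 to 657 CPM. B cell genes were present as well, so that the cells labelled as mammary epithelial also held B cell RNA. In bulk RNA, fewer cells of a type and less RNA per cell cannot be told apart.

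No immunoglobulin gene passed the test between genotypes. In the fit over all rows (edgeR, quasi-likelihood test), 0 of the 10 genes had an adjusted *p* at or under 0.05, beside 0.0% of the 30683 rows tested, and 0 had an unadjusted *p* at or under 0.05, beside 2.21% of rows. By edgeR's exact test and by DESeq2, 0.104% and 0.303% of rows were called at the adjusted threshold, and 0 of the 10 genes. At the unadjusted threshold, the exact test called 0 of the 10 genes (2.0% of rows) and DESeq2 called 2, *Ighg2b* and *Ighg2c* (3.02% of rows). The groups overlapped for each of the 10 genes, whereas the CPM of the genotypes did not overlap in 5.26% of rows. The median log2 fold change of the 10 genes was 0.16, where 7 had a positive and 3 a negative value (*fat-1* over WT), and that of all rows was 0.00493.

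The assembly made by the authors put *Ighm* and *Ighd* in a single locus, and several other genes shared their locus with rows that had no symbol. Adding all rows of each locus gave 9 loci for the 10 genes. Of these, 0 passed at the adjusted threshold (0.0% of 24061 loci tested) and 1, that of *Ighg2b*, at the unadjusted threshold (1.14% of loci). By the same count with edgeR's exact test and DESeq2, 0 of the 9 loci were called after adjustment, beside 0.0249% and 0.0332% of loci. Before adjustment, both of these tests called 2, the loci of *Ighg2b* and *Ighg2c*, beside 1.07% and 1.49% of loci. The median log2 fold change was 0.36 over the 9 loci and 0.00183 over all loci, and 8 of the 9 were higher in the *fat-1* samples. None of the 9 loci had groups that did not overlap, against 4.15% of all loci.

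**Figure D1:**
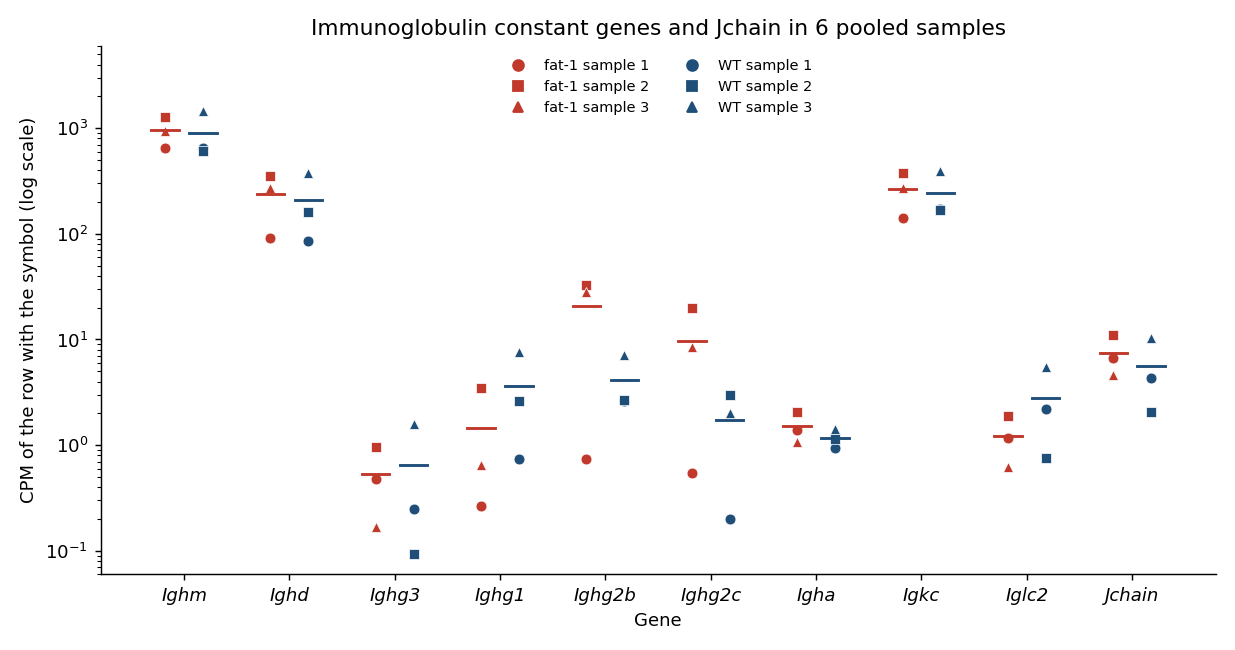
CPM of the row of each gene (log axis) in 3 *fat-1* samples (red) and 3 WT samples (blue), with symbols for sample numbers and short lines for the mean of each genotype. *Ighm*, *Ighd* and *Igkc* were high in every sample, from 86.3 CPM upward, and the genotypes overlapped for each of the 10 genes.

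Per kilobase of exon, the scale on which genes can be compared, IgM and kappa stood highest. The median level over the 6 samples was 421 CPM per kb for *Ighm* (325 to 769) and 418 for *Igkc* (267 to 732), and the 2 ranges overlapped. *Ighd* followed with a median of 114 CPM per kb (45.4 to 198), a range below and apart from that of *Igkc*. The *Iglc2* row had a median of 2.49 (1.0 to 8.91), but it held 0.683% to 4.47% of the counts of its assembled locus, so its place in this order depends on how the locus was divided. Of the others, *Jchain* had a median of 2.25 CPM per kb (0.826 to 4.40), *Ighg2c* 1.89 (0.151 to 14.9) and *Ighg2b* 1.85 (0.278 to 12.3). The lowest medians were 0.654 for *Ighg1* (0.103 to 2.93), 0.474 for *Igha* (0.355 to 0.769) and 0.144 for *Ighg3* (0.0370 to 0.634). From *Jchain* down, the ranges of all neighbours in this order overlapped, so that their order is within the spread between samples.

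*Ighm* encodes the heavy chain of IgM, the first antibody class a B cell makes. It had 646, 1285 and 935 CPM in *fat-1* pools 1 to 3 and 652, 613 and 1450 CPM in WT pools 1 to 3. *fat-1* sample 1 and WT samples 1 and 2 were alike and low, and the highest sample of each genotype was about as high as that of the other. The means were 956 ± 320 CPM (SD, *n* = 3) and 905 ± 472 CPM, which gave a log2 fold change of 0.08 (SE 0.42, edgeR adjusted *p* = 1.0). *Ighd*, the IgD heavy chain gene of mature naive B cells, had 91.8, 349 and 273 CPM in the *fat-1* pools and 86.3, 160 and 376 CPM in the WT pools. Sample 2 was again highest in *fat-1* mice and sample 3 in WT mice, while sample 1 was lowest in both, and the log2 fold change was 0.20 (SE 0.68, edgeR adjusted *p* = 1.0). The *Ighm* row held 54.1% to 64.4% of the counts of the shared locus and the *Ighd* row 7.91% to 16.2%, with nearly all of the rest in a row without a symbol. The locus sum was 1685 ± 685 CPM (SD, *n* = 3) in *fat-1* mice and 1545 ± 770 CPM in WT mice, with a log2 fold change of 0.13 (SE 0.42).

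The ratio of the *Ighd* row to the *Ighm* row, each in counts per kilobase, differed between samples of one genotype. It was 0.141, 0.270 and 0.289 in the *fat-1* pools and 0.131, 0.259 and 0.257 in the WT pools. Sample 1 of each genotype was low and the other 4 samples lay close together. WT sample 2 was among the samples with a low *Ighm* level and yet had the higher ratio. The row without a symbol in the shared locus held 55768 to 158324 counts, more than the *Ighd* row in every sample. The ratio therefore also depends on how the locus was divided, and that part was not tested.

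As rows, the IgG genes varied most between samples, and the highest levels of 2 of them were in *fat-1* mice. *Ighg2b*, the IgG2b heavy chain gene, had 0.743, 33.0 and 28.1 CPM in *fat-1* pools 1 to 3 and 2.64, 2.69 and 7.20 CPM in WT pools 1 to 3, from 156, 7055 and 5862 counts and 565, 609 and 1482 counts. *fat-1* samples 2 and 3 were above every WT sample and *fat-1* sample 1 was below every WT sample, so the groups overlapped and the spread within *fat-1* mice was 44.4-fold. The log2 fold change was 2.30 (SE 1.22, edgeR unadjusted *p* = 0.109, adjusted *p* = 1.0). With the second row of its locus added, the values were 3.30, 40.0 and 33.9 CPM in the *fat-1* pools and 3.14, 4.33 and 8.52 CPM in the WT pools. On this sum, *fat-1* sample 1 lay just above the lowest WT sample and below the other two. The log2 fold change was 2.27 (SE 0.88, edgeR unadjusted *p* = 0.0395, adjusted *p* = 1.0), and the two-sided exact permutation *p* of log2(CPM + 1) was 0.3, where 3 against 3 samples can reach 0.1 at best. Without *fat-1* sample 2, without *fat-1* sample 3, without WT sample 1 and without WT sample 2, the edgeR unadjusted *p* of the sum was 0.109, 0.0966, 0.108 and 0.110. Without *fat-1* sample 1 it was 0.000704 (log2 fold change 2.80) and without WT sample 3 it was 0.0431 (log2 fold change 2.80), and the adjusted *p* was 1.0 each time.

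*Ighg2c*, the IgG2c heavy chain gene, had 0.548, 19.7 and 8.52 CPM in the *fat-1* pools and 0.201, 2.98 and 2.03 CPM in the WT pools. As for *Ighg2b*, *fat-1* samples 2 and 3 exceeded every WT sample and *fat-1* sample 1 did not, and WT sample 1 was lowest. The log2 fold change was 2.46 (SE 1.38, edgeR adjusted *p* = 1.0) for the row and 1.78 (SE 0.90, adjusted *p* = 1.0) for the locus sum. *Ighg2a* had no row in the count matrix, which was made on GRCm38, so no reads could be counted under that name. Whether these FVB/NJ mice made IgG2a transcripts, and where such reads were placed, was not tested.

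*Ighg1*, the IgG1 heavy chain gene, had 0.267, 3.49 and 0.653 CPM in the *fat-1* pools and 0.747, 2.64 and 7.58 CPM in the WT pools. Here *fat-1* sample 3 was low and WT sample 3 was highest, and the groups overlapped (log2 fold change −1.32, SE 1.17, edgeR adjusted *p* = 1.0). The log2 fold change was −2.99 without *fat-1* sample 2 (edgeR unadjusted *p* = 0.0467) and −0.21 without WT sample 3 (unadjusted *p* = 0.869). *Ighg3*, the IgG3 heavy chain gene, was at 0.476, 0.953 and 0.168 CPM in the *fat-1* pools and 0.248, 0.0929 and 1.59 CPM in the WT pools. WT sample 3 was highest and WT sample 2 lowest, so that the WT values enclosed the *fat-1* values. Its log2 fold change was −0.27 (SE 1.11) for the row and 0.55 (SE 0.62) for the locus sum, of which the row held 5.02% to 30.9%, and neither passed (edgeR adjusted *p* = 1.0).

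**Figure D2:**
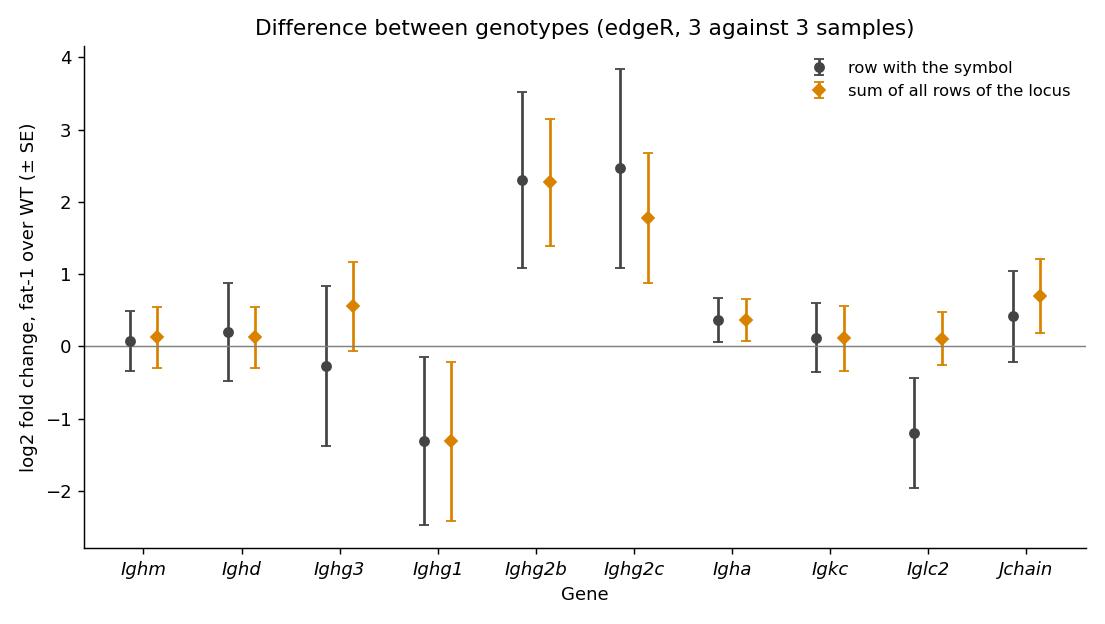
Log2 fold change of *fat-1* over WT samples for each gene, as the row with the symbol (grey circles) and as the sum of all rows of its locus (orange diamonds), with bars of 1 SE from edgeR. *Ighg2b* and *Ighg2c* lie highest, with the row at 2.30 and 2.46, and the *Ighg3* and *Iglc2* rows lie below 0 while their locus sums lie above it.

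Heavy chain transcripts were mainly IgM and IgD in every sample. Per kilobase, *Ighm* and *Ighd* together held 99.6%, 96.7% and 97.3% of the heavy chain constant counts of the *fat-1* pools and 99.5%, 98.9% and 99.2% of those of the WT pools. The 4 IgG genes held 0.251%, 3.23% and 2.63% in the *fat-1* pools and 0.387%, 1.04% and 0.798% in the WT pools. *fat-1* samples 2 and 3 had the largest IgG shares and, by rows, *fat-1* sample 1 the smallest. The mean IgG share was 2.04% ± 1.58 (SD, *n* = 3) in *fat-1* mice and 0.742% ± 0.330 in WT mice, a difference of 1.29 percentage points (two-sided exact permutation *p* = 0.4). Leaving out *fat-1* sample 1 gave 2.19 and leaving out *fat-1* sample 2 gave 0.696 percentage points. With locus sums, the shares were 1.86%, 6.06% and 5.60% in *fat-1* mice and 1.07%, 2.06% and 2.28% in WT mice, so that WT sample 1 was the smallest, and the difference was 2.70 percentage points (exact permutation *p* = 0.3). Counting error was small beside these gaps, since the Wilson 95% interval of the IgG share of counts, without division by length, ran from 0.250% to 0.302% in *fat-1* sample 1 and from 3.31% to 3.43% in *fat-1* sample 2, and covers counting error only.

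By rows, the subclass within IgG that held most counts was not the same in every sample. *Ighg2c* held 42.0% of IgG counts per kilobase in *fat-1* sample 1, 51.4% in *fat-1* sample 2 and 52.2% in WT sample 2, where it was the largest. *Ighg2b* led in *fat-1* sample 3 with 60.9% and in WT sample 1 with 64.7%. In WT sample 3, *Ighg1* led with 37.6%, and *Ighg2b* had 34.6%. In that sample the *Ighg2c* row held 22.4% of its locus. Its locus sums, not divided by length, were 9.08 CPM for *Ighg2c*, 8.52 for *Ighg2b* and 7.59 for *Ighg1*, so *Ighg1* led by rows only. Again by rows, *Ighg1* held 10.5%, 4.65% and 1.46% of IgG counts in the *fat-1* pools and 18.9%, 23.6% and 37.6% in the WT pools, which was a larger share in each WT sample than in any *fat-1* sample. This last separation was seen after the values were computed, and was not tested.

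**Figure D3:**
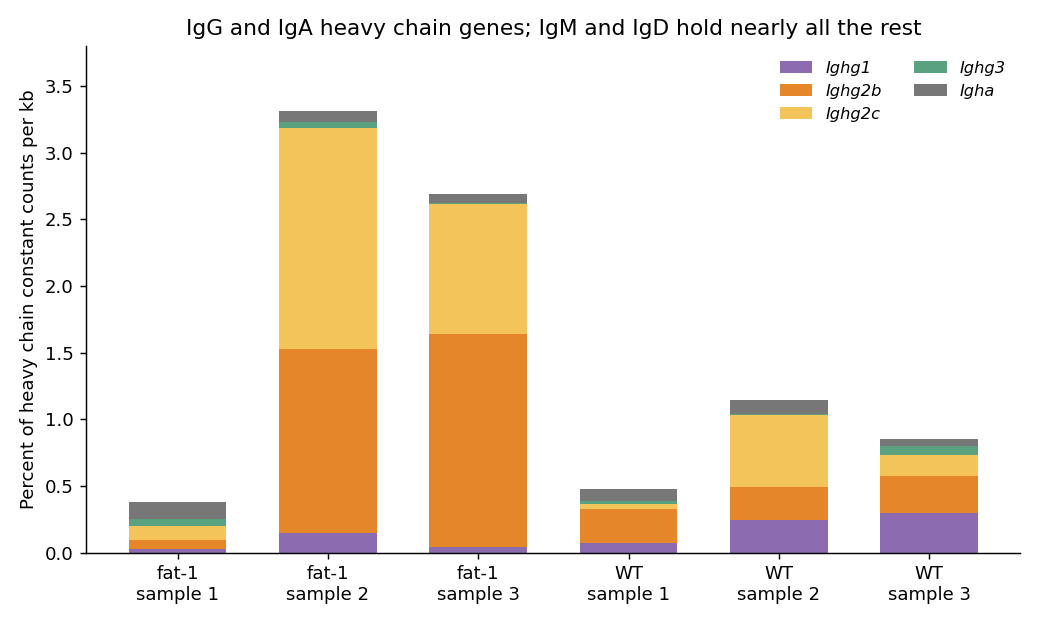
Percent of heavy chain constant counts per kilobase held by the 4 IgG genes and by *Igha* in each of the 6 samples, stacked from 0. *fat-1* samples 2 and 3 carry 3.23% and 2.63% IgG, mainly *Ighg2b* and *Ighg2c*, and the other 4 samples carry 0.251% to 1.04%.

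*Igha*, which encodes the heavy chain of IgA, was low and even. It had 1.38, 2.05 and 1.08 CPM in the *fat-1* pools and 0.948, 1.15 and 1.41 CPM in the WT pools, from 203 to 439 counts. The groups overlapped and the highest and lowest samples differed 2.17-fold, less than for any other of the 10 rows. The log2 fold change was 0.37 (SE 0.30, edgeR adjusted *p* = 1.0). IgA held 0.132%, 0.0859% and 0.0616% of heavy chain counts per kilobase in the *fat-1* pools and 0.0903%, 0.104% and 0.0541% in the WT pools. The share was lowest in sample 3 of either genotype, and the means differed by 0.0104 percentage points (two-sided exact permutation *p* = 0.8).

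*Jchain* encodes the small protein that joins IgM and IgA into polymers and that their transport receptor needs. The row had 6.74, 11.1 and 4.58 CPM in the *fat-1* pools and 4.31, 2.08 and 10.4 CPM in the WT pools. Sample 2 was the highest of the *fat-1* pools and the lowest of the WT samples, and the groups overlapped (log2 fold change 0.41, SE 0.63, edgeR adjusted *p* = 1.0). A second row of the locus, without a symbol, held 0, 1068 and 589 counts in the *fat-1* pools and 12, 381 and 4 in the WT pools. With it, the locus had 6.71, 16.0 and 7.42 CPM and 4.37, 3.76 and 10.5 CPM, a log2 fold change of 0.70 (SE 0.51, adjusted *p* = 1.0).

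The kappa light chain gene *Igkc* had 142, 373 and 274 CPM in the *fat-1* pools and 171, 167 and 389 CPM in the WT pools. These followed *Ighm*, with *fat-1* sample 1 and WT samples 1 and 2 low and WT sample 3 highest. Its log2 fold change was 0.12 (SE 0.48, edgeR adjusted *p* = 1.0), and the row held 42.1% to 45.2% of its locus in every sample, so that the locus sum gave 0.11 (SE 0.45). *Iglc2*, a lambda light chain gene, had 1.17, 1.88 and 0.614 CPM in the *fat-1* pools and 2.21, 0.761 and 5.45 CPM in the WT pools. WT sample 3 was highest and *fat-1* sample 3 lowest, and the log2 fold change was −1.20 (SE 0.76, edgeR adjusted *p* = 1.0). This row held 0.683% to 4.47% of its locus. The locus had 57.0, 131 and 90.1 CPM in the *fat-1* pools and 63.1, 73.4 and 122 CPM in the WT pools. These sums ran in the same order of samples within each genotype as *Ighm* and *Ighd* together, and the log2 fold change was 0.10 (SE 0.36), so the row says little about the gene.

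**Figure D4:**
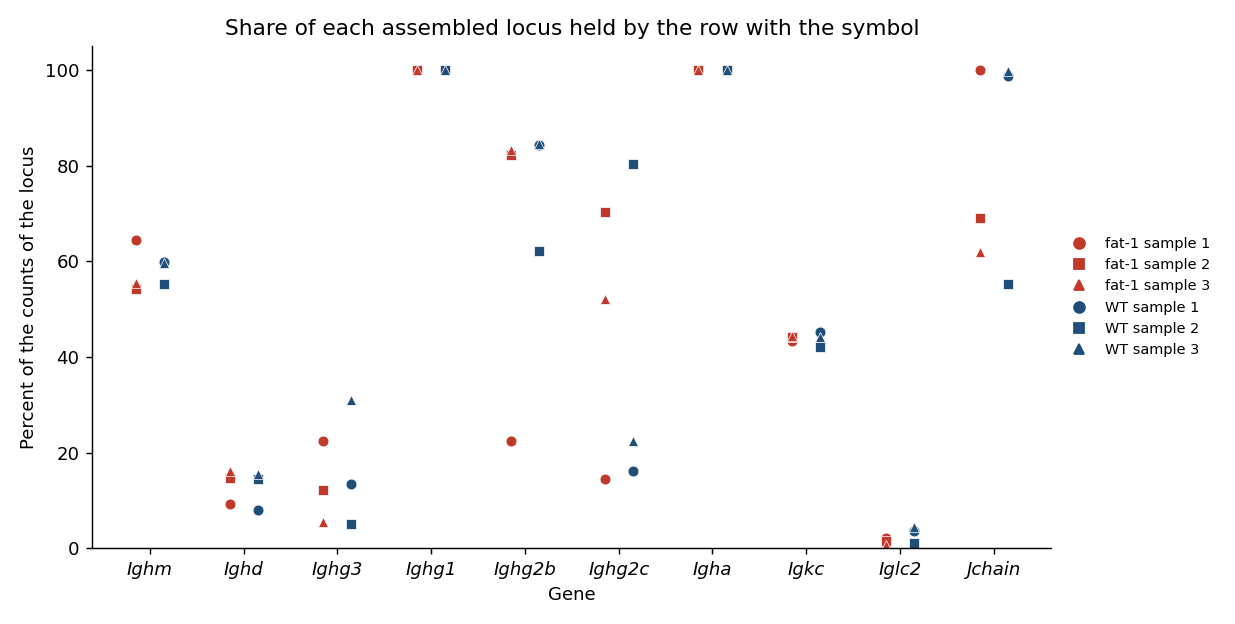
Percent of the counts of its assembled locus held by the row that carries the symbol, for each gene in 3 *fat-1* samples (red) and 3 WT samples (blue). *Ighg1* and *Igha* were alone in their loci, *Igkc* kept 42.1% to 45.2%, *Iglc2* 0.683% to 4.47%, and *Ighg2b* (22.4% to 84.6%), *Ighg2c* (14.5% to 80.2%) and *Jchain* (55.2% to 100%) varied between samples.

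The other constant genes with a row were *Iglc3*, with a median of 28.2 CPM per kb, *Iglc1* with 12.4, *Iglc4* with 0.652 and *Ighe*, the IgE heavy chain gene, with 0.0582. *Ighe* had 14 to 45 counts per sample. Of their 3 loci, since *Iglc1* and *Iglc3* share 1, 0 passed, with log2 fold changes of 0.20 for the shared locus, 0.62 for *Iglc4* and −0.91 for *Ighe*. Against the 4 lambda genes, *Igkc* made up 91.2%, 90.9% and 91.1% of light chain constant counts per kilobase in the *fat-1* pools and 91.0%, 90.1% and 90.7% in the WT pools. With locus sums, kappa held a lower share and varied more, from 81.6% to 85.2%. By rows, the genotypes differed by 0.504 percentage points (two-sided exact permutation *p* = 0.2), and by 0.200 with locus sums (exact permutation *p* = 0.9). Row counts not divided by length gave 92.25%, 92.11% and 92.34% in the *fat-1* pools and 91.96%, 91.35% and 91.69% in the WT pools. These did not overlap and differed by 0.565 percentage points (exact permutation *p* = 0.1, the smallest possible). All 9 constant genes summed gave log2(CPM + 1) of 10.5 ± 0.620 (SD, *n* = 3) in *fat-1* mice and 10.3 ± 0.730 in WT mice (two-sided exact permutation *p* = 1.0).

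Variable segments were spread over many genes in every sample. Of 185 heavy chain variable (Ighv) rows, 142 had counts in at least 1 sample, as did 131 of 160 kappa (Igkv) rows and all 3 lambda (Iglv) rows. The most abundant Ighv row was *Ighv1-26* in each sample, with 5.27% to 6.97% of Ighv counts, and 20 to 21 rows were needed for 50% of them. *Ighv9-3* (3.49% to 4.05%) and *Ighv1-82* (2.65% to 3.46%) followed. Among Igkv rows, *Igkv1-117* held 4.64% to 5.15%, *Igkv10-96* 4.12% to 5.32% and *Igkv6-15* 3.68% to 4.99%, and 15 to 17 rows made up 50%. *Iglv1* held 67.4% to 74.9% of Iglv counts, *Iglv2* 21.5% to 31.2% and *Iglv3* 1.41% to 4.61%. The largest share of any Igkv row in a sample was 7.00%, for *Igkv5-39* in WT sample 1, a row named after its values were seen.

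Of the 110 Ighv, 99 Igkv and 3 Iglv rows tested, 0 had an edgeR adjusted or unadjusted *p* at or under 0.05, beside 2.21% of all rows at the unadjusted threshold. Their median log2 fold changes were 0.16, 0.07 and 0.14. The counts of Ighv rows were 11.7% to 13.3% of those of the 7 heavy chain constant genes, and those of Igkv rows were 90.3% to 104% of those of *Igkc*. Segments share sequence, so counts of single segments are uncertain.

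B cell genes stood in nearly the same order of samples as IgM. *Ms4a1*, which encodes CD20, had 34.0, 97.9 and 78.1 CPM in the *fat-1* pools and 36.1, 47.1 and 110 CPM in the WT pools. Here *fat-1* sample 1 and WT sample 1 were lowest and sample 2 of *fat-1* and sample 3 of WT were highest. *Cd79a*, which encodes a signalling chain of the B cell receptor, had 0.420 to 17.5 CPM in its own row. Its locus also holds *Arhgef1* and had 266 to 521 CPM, so it is not a measure of *Cd79a* alone. This locus stayed in the counts, sums and means of the B cell list. Of the 15 B cell loci tested, 0 passed, 14 were higher and 1 lower in *fat-1* mice, with a median log2 fold change of 0.14. Their summed level was 823 to 1983 CPM in *fat-1* samples and 889 to 1981 CPM in WT samples.

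By locus sums, the level of IgM relative to the B cell list was nearly constant. The locus of *Ighm* and *Ighd* stood 4.90, 4.85 and 4.74 above the mean log2(CPM + 1) of the B cell list in the *fat-1* pools and 4.84, 4.77 and 4.97 above it in the WT pools. By rows, *Ighm* varied more, from 4.86 to 5.42 above the list. For the *Ighm* row the difference between genotypes was −0.12, and for *Igkc* −0.13 (two-sided exact permutation *p* = 0.5 and 0.3). The summed IgG rows stood at −2.46, 0.74 and 0.26 relative to the list in the *fat-1* pools and at −1.66, −1.03 and −0.92 in the WT pools. *fat-1* samples 2 and 3 lay above and *fat-1* sample 1 below the WT samples, as in the IgG values themselves, and the genotypes differed by 0.72 (exact permutation *p* = 0.5). With locus sums, *fat-1* sample 1 stood at −1.68, above WT sample 1 at −2.26, and the genotypes differed by 1.08 (exact permutation *p* = 0.3). The *Igha* and *Jchain* rows differed by −0.07 and 0.23 (exact permutation *p* = 0.9 and 0.6).

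Plasma cell genes gave a mixed picture. *Tnfrsf17*, which encodes the receptor BCMA of plasma cells, had 6 to 21 counts per sample, at most 0.1 CPM. *Mzb1*, a chaperone of secreted IgM, had 3.63, 14.3 and 9.93 CPM in the *fat-1* pools and 5.28, 10.5 and 12.1 CPM in the WT pools. *Sdc1*, which encodes syndecan-1 and is also made by epithelial cells, had 75.4, 45 and 100.3 CPM and 117, 42.8 and 18.3 CPM, so that it did not order the samples as *Mzb1* did. Of the 14 loci of the list, 0 passed, 6 were higher and 8 lower, with a median log2 fold change of −0.01. Their sum ran from 646 to 825 CPM in *fat-1* mice and from 736 to 842 CPM in WT mice. The *Sdc1* locus gave 58.4 to 137 CPM of this sum, so the list does not measure plasma cells alone. Which cells the rest came from was not tested. Relative to the mean of this list, the genotypes differed by 0.10 for *Ighm*, 0.95 for summed IgG, 0.16 for *Igha*, 0.09 for *Igkc* and 0.46 for *Jchain* (two-sided exact permutation *p* = 0.8, 0.5, 0.5, 0.9 and 0.7).

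Genes of germinal centres and class switching were tested at 16 loci, of which 0 passed, 8 were higher and 8 lower. The *Mef2b* row had at most 0.675 CPM, and its locus, shared with *Borcs8*, had 24.4 to 31.2 CPM. Signals and receptors that direct switching passed at 0 of 12 loci (7 higher, 5 lower). The *Tnfsf13* row had at most 0.0381 CPM in a locus of 71.9 to 81.3 CPM that also holds *Tnfsf12* and *Senp3*. *Tnfsf13b* had 1.08 to 2.82 CPM in a locus of 38.0 to 47.5 CPM shared with *Abhd13*. Such loci do not measure the listed gene alone, and they stayed in these counts. Genes of pre-B cells, the surrogate light chain and recombination enzymes, were low, with a summed level of 3.0 to 4.31 CPM and *Vpreb2* listed at 0 in each sample. Most of this sum came from the *Rag1* locus, with 2.64 to 3.95 CPM, which also holds *B230118H07Rik*. The *Rag1* row itself had 0.557 to 1.30 CPM.

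Receptors and homing signals for antibodies ranged widely in level. *Pigr*, which encodes the receptor that carries polymeric IgA and IgM across epithelium, had 1.67, 1.17 and 3.40 CPM in the *fat-1* pools and 2.02, 3.0 and 1.5 CPM in the WT pools. *Ccl28*, the chemokine that draws IgA plasma cells to the lactating gland, had 0.510, 0.692 and 0.197 CPM and 0.574, 0.442 and 0.860 CPM. Of the 10 loci for immunoglobulin receptors, 0 passed after adjustment and 1 before it, beside 1.14% of all loci. This was *Fcamr*, which encodes a receptor for IgA and IgM, with 0.190, 0.452 and 0.5 CPM in the *fat-1* pools and 0.140, 0.194 and 0.102 CPM in the WT pools (log2 fold change 1.37, SE 0.45, edgeR unadjusted *p* = 0.0210, adjusted *p* = 1.0). *fat-1* sample 1 lay below WT sample 2, so the groups overlapped. The 10 homing loci, *Ccl28* among them, summed to 149 to 356 CPM in *fat-1* mice and 169 to 355 CPM in WT mice, and 0 passed, with 7 higher and 3 lower.

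Markers of other cells also differed between samples of one genotype. The 11 T cell loci tested were each higher in *fat-1* mice with 0 passing (median log2 fold change 0.09), and *Cd3e*, a chain of the T cell receptor complex, had 9.70, 20.2 and 10.4 CPM in the *fat-1* pools and 8.63, 10.7 and 18.4 CPM in the WT pools. Summed T cell loci reached 190 to 369 CPM in *fat-1* mice and 160 to 370 CPM in WT mice. Summed lymph node stroma markers were at 58.8, 178 and 158 CPM in the *fat-1* pools and 43.7, 45.4 and 143 CPM in the WT pools. *fat-1* samples 2 and 3 and WT sample 3, which had the highest *Ighm* and *Igkc* levels, were also highest in this list. The lymph node list had 10 loci, with 8 higher, 2 lower and 0 passing after adjustment, and 2 loci named *Ccl19*, a chemokine of lymphoid stroma, passed before it, beside 1.14% of all loci (log2 fold changes 1.46 and 2.16, SE 0.56 and 0.71, edgeR unadjusted *p* = 0.0381 and 0.0214, adjusted *p* = 1.0). Both *Ccl19* loci were low, at 0.0888 to 0.643 and 0.112 to 1.40 CPM. In each, *fat-1* sample 1 (0.190 and 0.232 CPM) lay below WT sample 3 (0.253 and 0.316 CPM), so the groups overlapped. Across samples, summed epithelial markers ran the other way, with 4118, 968 and 1693 CPM in the *fat-1* pools and 3101, 1758 and 989 CPM in the WT pools. Between genotypes, 0 of 12 epithelial loci passed, and 9 were higher and 3 lower in *fat-1* mice (median log2 fold change 0.20). The part of these cells in the immunoglobulin levels was not tested.

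**Figure D5:**
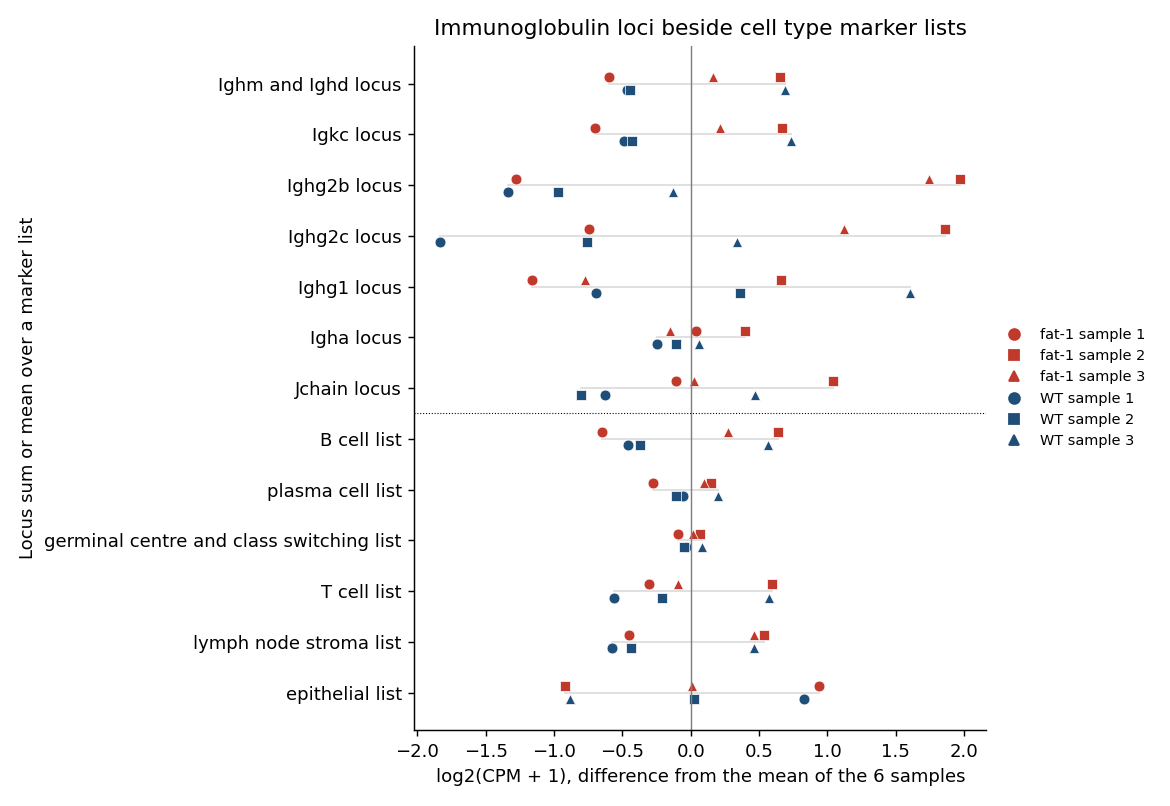
Log2(CPM + 1) of immunoglobulin loci (above the dotted line) and the mean over marker lists (below it) in each sample, as the difference from the mean of the 6 samples. *Ighm* and *Ighd*, *Igkc* and the B cell list order the samples nearly alike, the epithelial list runs the other way, and *fat-1* samples 2 and 3 lie far to the right for *Ighg2b* and *Ighg2c*.

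The loci most like 4 of the genes were ranked by Pearson's *r* of log2(CPM + 1) over the 6 samples, among 13892 loci with a symbol and at least 1 CPM on average. For the *Ighm* locus these were *Pik3cd* (*r* = 0.999), *Galnt12* (0.999), *Parp1* (0.998), *Bank1* (0.998) and *Ltb* (0.998). *Pik3cd* encodes a lipid kinase of leukocytes and *Bank1* a scaffold protein of B cell receptor signalling. For *Igkc* they were *Gm13012* (1.000), *Rab39* (0.999), *AI467606* (0.999), *Prkcb* (0.998) and *P2ry14* (0.998). The loci most like *Igha* were *Prpf39*, *Safb2*, *Gm9821*, *Tet3* and *2010016I18Rik* (*r* = 0.980 to 0.999), and those most like *Jchain* were *Gm17241*, *Gm48088*, *Lepr*, *Stx5a* and *Fbxo4* (*r* = 0.984 to 0.993). All values come from the same 6 libraries, and the highest of so many correlations over 6 samples are high by selection.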

How the data were processed

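RNA of 6 pooled samples (*n* = 3 per genotype) was sequenced as paired-end reads of 100 bases. Per the methods, the authors mapped reads to GRCm38 with HISAT2, and assembled and quantified transcripts with StringTie. The deposited values are estimated counts per gene, given as whole numbers. Tool versions, the annotation and the strand setting are not given in the sources used here. Such counts depend on how the assembly divides a locus, so each gene was read as its row and as the sum of its locus. The 10 genes and the marker lists were chosen with earlier results of these data known.

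Counts were filtered (filterByExpr), scaled by TMM and tested with edgeR 4.0.16 (R 4.3.3; quasi-likelihood test, genotype as the only term, Benjamini–Hochberg adjustment over all 30683 rows or 24061 loci, threshold 0.05). Alternatives were the older edgeR fit, edgeR's exact test, DESeq2 1.42.0, other scalings, no filter, each sample left out, and a replicate block. Shares and levels relative to marker lists were compared by two-sided exact permutation tests with a pseudocount of 1 CPM. Exon lengths, coordinates and sequences came from the GENCODE annotation of GRCm38, and coding sequences were aligned with Biopython 1.88. Genes named were the 10 genes, list members with an unadjusted *p* at or under 0.05 in the locus fit, a set of fixed markers (2 of them not reported here), the other constant genes, the 5 most alike loci for 4 genes and the 3 most abundant segments of each variable family; *Vpreb2* was added after its values were seen. Correlations across samples planned between immunoglobulin and marker levels are not given, since 3 samples had low and 3 had high levels. On simulated counts with the spread of the real data, the test recovered 20 of 100 loci changed 2-fold and 87 of 100 changed 4-fold, and 0 and 1 of 100 rows. It also made 10 false calls over loci and 0 over rows. Changed features were drawn from those above 1 CPM on average, and each feature was simulated independently. These shares therefore do not give the chance of finding a change in any single one of the 10 genes. Nothing says whether pools were processed separately, so *p*-values measure only the spread between these samples.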

Additional observations from a re-analysis of the deposited data

How the results depend on the processing

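None of the 10 genes, as a row or as a locus sum, had an adjusted *p* at or under 0.05 under any alternative or with any sample left out. Over the whole table, edgeR's exact test called 32 rows and 6 loci and DESeq2 93 rows and 8 loci, against 0 by the quasi-likelihood test, and leaving out a sample gave 0 to 2 rows and 0 to 1 loci. Replicate numbers did not pair the samples, with correlations of same-numbered samples of 0.27, −0.03 and 0.04 over rows and 0.52, −0.10 and 0.07 over loci, and not every sample correlated best with its own number. With the replicate block, 0 rows and 0 loci were called, and the log2 fold change of the *Ighg3* row turned from −0.27 to 0.49. The unadjusted edgeR *p* with this block was 0.00294 for the *Ighg2c* row and 0.0111 for its locus sum. For *Ighg2b* it was 0.351 and 0.0406. With a sample left out, small differences changed sign. The ranges of log2 fold changes were −0.20 to 0.59 for the *Ighm* row, −0.19 to 0.95 for *Ighd*, −0.22 to 0.64 for *Igkc* and −0.996 to 1.65 for *Ighg3*, and over locus sums −0.20 to 0.63 for *Ighm* and *Ighd*, −0.23 to 0.64 for *Igkc*, −0.18 to 1.25 for *Ighg3* and −0.23 to 0.46 for *Iglc2*. *Ighg2b* and *Ighg2c* kept their sign, between 1.79 and 2.95 and between 1.38 and 3.11 as rows, as did *Ighg1*, between −2.99 and −0.21. The genotype difference ranged from −0.11 to 0.59 for the summed constant genes, from −0.00898 to 0.0262 percentage points for the IgA share, from −0.245 to 0.00334 for *Ighm*, −0.38 to 0.20 for *Igha* and −0.12 to 0.63 for *Jchain* relative to the B cell list, and from −0.12 to 0.48 for *Ighm* and −0.14 to 0.48 for *Igkc* relative to the plasma cell list. *Igha* relative to the B cell list turned from −0.07 to 0.0180 with locus sums and to 0.0382 with a pseudocount of 0.1. The cause of these reversals was not tested. With 3 pools per genotype, and *fat-1* pools differing 44.4-fold in the *Ighg2b* row, differences in IgG could not be resolved, and *Ighg3*, *Igha* and *Ighe* rested on few counts.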
